A study of Mus musculus with 20 samples.

Results

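The 10 myosin heavy chain genes of microglia described here are Myo1e, Myo1f, Myo1g, Myo5a, Myo6, Myo9b, Myo10, Myo18a, Myo18b and Myh9, which are 10 of the 21315 gene symbols listed. They were chosen by name with measured values in view, because Myo1e and Myo5a were higher in APP-KI than in WT microglia in these libraries. The differences between APP-KI and WT are therefore given as a description, with no test. Myosin heavy chains are motor proteins that use ATP to pull on actin filaments. Unconventional chains act on membranes, vesicles and cell protrusions, while class II chains assemble into the filaments that contract the cell cortex. Microglia rely on actin to extend processes, migrate and engulf debris.

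RNA was sequenced from microglia sorted from the brains of C57BL/6 mice at 9 months of age, in 20 libraries of 6 conditions. Microglia were gated by CD45 and CD11b. In 6 libraries they were also sorted as C3aR-positive by a Td-tomato reporter placed in the C3ar1 locus, 3 from WT and 3 from APP-KI mice that both carried it. The other 14 libraries held all sorted microglia, 3 from WT, 3 from APP-KI, 3 from C3aR-KO and 5 from APP-KI;C3aR-KO mice, the last called double mutant below. APP-KI mice carry the humanized APP NL-G-F allele at the endogenous App locus and develop amyloid plaques. C3aR-KO mice are knockouts of C3ar1, the gene of the complement C3a receptor. The labels number the replicates but do not say whether each is a separate mouse, so p-values measure the spread between these libraries.

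Reads per library ran from 13939559 to 30388941 in the C3aR-positive libraries and from 42239056 to 76608464 in the others. A scaled value is the deposited value times 35.2, the same constant in every library, and is not divided by gene length. Myo10, which had the fewest reads of the 10 genes in 19 of 20 libraries, had between 95 and 1480 reads per library, and all 10 genes passed the filter on low values, an average scaled value of 1 or more, in every comparison.

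Some libraries stood apart. Those of APP-KI replicate 4, C3aR-KO replicates 1 and 2 and double mutant replicate 1 had reads for 13250, 12702, 13055 and 12387 genes, and that of APP-KI replicate 5 for 21219, against 14888 to 17450 in the other 15. Of 11390 genes with more than 100 reads on average, 412, 496, 561 and 857 had no read in the 4 libraries with few genes. All 5 have library numbers that begin with 24, a series that also holds WT replicate 4 and double mutant replicate 2, while the remaining all-sorted libraries begin with 26. The C3aR-positive libraries all begin with 22, so the sort cannot be told apart from that series. Results are also given without the 4 libraries with few genes, a choice made after seeing the data that leaves 1 C3aR-KO library, assumed to vary like the other groups.

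C3ar1 was low in the knockout libraries. Its scaled value was 315 ± 34.6 (SD, n = 3) in WT and 57.9 ± 15.6 (n = 3) in C3aR-KO microglia, and 289 ± 114 (n = 3) in APP-KI and 73.0 ± 7.40 (n = 5) in double mutant microglia. In the WT libraries labelled C3aR-positive it was 63.3 ± 22.8 (n = 3), lower than in all sorted WT microglia, and in the APP-KI libraries labelled C3aR-positive 278 ± 93.9 (n = 3). The part of the reporter, which sits in that locus, in these values was not tested.

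All 10 microglial markers had reads in every library, and Csf1r was the most abundant in 19 of 20. Their summed scaled value in all sorted microglia was 29172, 31272 and 29647 in WT, 11589, 18778 and 23679 in APP-KI, 25582, 17608 and 29711 in C3aR-KO and 9957, 22342, 25846, 22901 and 25953 in double mutant mice, in replicate order. The lowest sums were those of the 2 libraries with few genes that carry the APP allele. Over the 20 libraries the 10 neuronal markers summed to 2.15 to 30.1, the 8 T and NK cell markers to 0.320 to 78.3, the 9 mural and muscle markers to 8.53 to 104, the 8 astrocyte markers, led by Slc1a3, to 213 to 404 and the 9 monocyte and neutrophil markers, led by Csf3r, to 934 to 1702. The highest neuronal, T and NK cell and mural and muscle sums were all those of all-sorted APP-KI replicate 5, the library with many genes. In bulk libraries, fewer cells of a type and less RNA per cell cannot be told apart.

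Levels of different genes were compared per kilobase of exon. In all sorted WT microglia the order of mean scaled value per kilobase (± SD, n = 3) was Myh9 (259 ± 22.2), Myo1f (122 ± 9.75), Myo9b (59.5 ± 2.52), Myo18a (41.2 ± 2.58), Myo18b (33.7 ± 7.56), Myo1g (18.2 ± 3.78), Myo5a (12.1 ± 3.08), Myo1e (9.62 ± 2.53), Myo6 (4.12 ± 0.123) and Myo10 (0.961 ± 0.293). Neighbours overlapped between Myo18a and Myo18b and between Myo5a and Myo1e. In all sorted APP-KI microglia Myo1e had rank 3, at 120 ± 10.7 per kilobase (n = 3), and its range overlapped that of Myo9b at rank 4 (93.3 ± 24.7). Myh9 and Myo1f had ranks 1 and 2, and Myo6 and Myo10 ranks 9 and 10, in all 6 conditions. The 10 genes together summed to a scaled value of 3837 ± 161 (n = 3) in WT, 4744 ± 557 (n = 3) in APP-KI, 4656 ± 546 (n = 3) in C3aR-KO and 4739 ± 371 (n = 5) in double mutant microglia, and to 3848 ± 169 and 5296 ± 87.0 (n = 3 each) in C3aR-positive WT and APP-KI microglia.

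**Figure D1:**
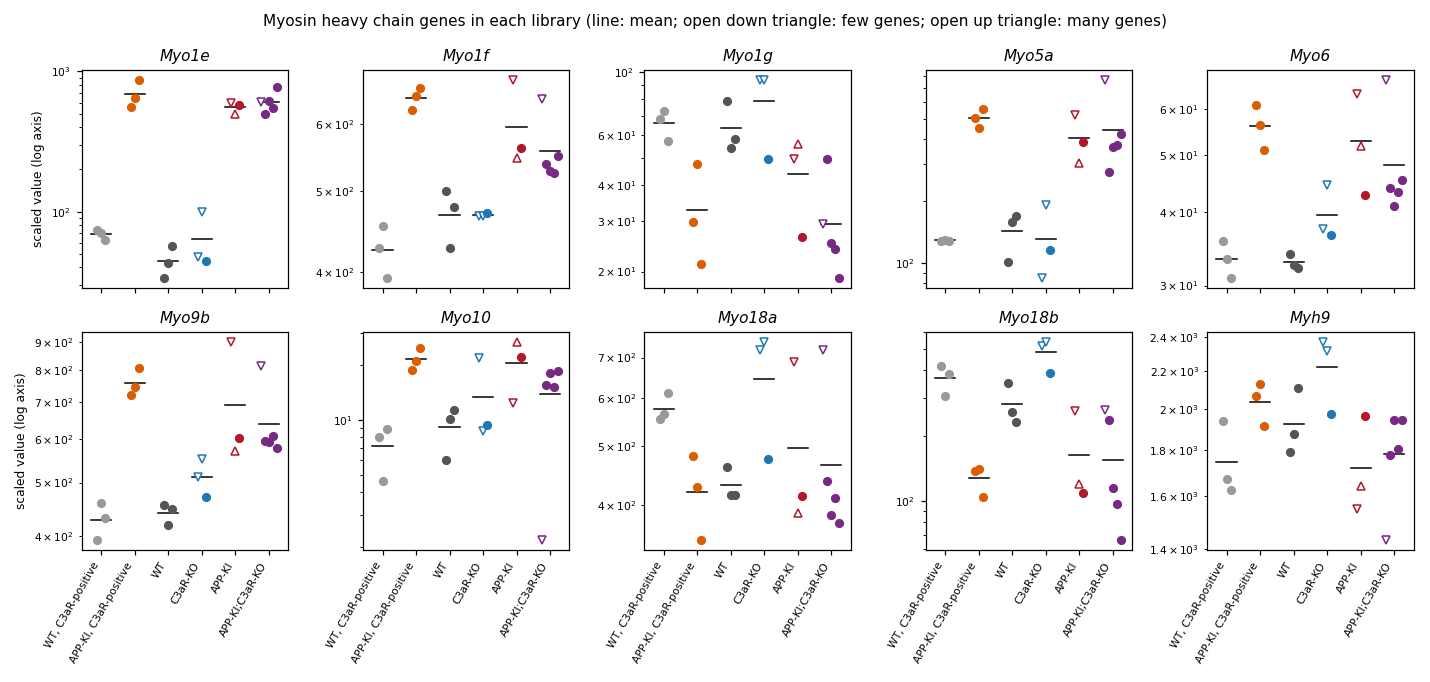
Scaled value (vertical, log axis) of each myosin heavy chain gene in each library of the 6 conditions (horizontal), with a line at each mean and triangles for the libraries with few or many genes. Myo1e lay between 33.8 and 99.0 in libraries without the APP allele and between 499 and 876 in those with it.

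Myo1e (chr9:70207350-70399766, plus strand, GRCm38) encodes a long-tailed class I myosin that binds membrane lipids and works in endocytosis. In all sorted microglia its scaled value was 33.8, 42.8 and 57.0 in WT and 593, 501 and 577 in APP-KI mice. In C3aR-positive microglia it was 73.5, 69.8 and 63.3 in WT and 559, 651 and 876 in APP-KI mice. Every APP-KI library was above every WT library in both sorts. The log2 difference of (scaled value + 1) was 3.67 in all sorted and 3.29 in C3aR-positive microglia, and 3.97 and 3.52 within the 24 and 26 series. In all sorted microglia the 24 series held 1 WT and 2 APP-KI libraries, and the 26 series 2 and 1.

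Myo5a (chr9:75071015-75223688, plus strand) encodes the class V motor that carries vesicles and organelles along actin. Its scaled value was 101, 157 and 169 in WT and 520, 305 and 384 in APP-KI mice in all sorted microglia. In C3aR-positive microglia the values were 128, 130 and 128 in WT and 501, 452 and 555 in APP-KI mice. Here too the genotypes did not overlap in either sort. On the log2(scaled value + 1) scale the difference was 2.82-fold in all sorted and 3.87-fold in C3aR-positive microglia, and within the 24 and 26 series the log2 difference was 1.97 and 1.23.

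The other class I chains differed less or in the other direction. Myo1f, a long-tailed chain of immune cells, had log2 differences of 0.31 in all sorted and 0.60 in C3aR-positive microglia. Myo1g, a short-tailed chain of blood cells, had scaled values of 78.7, 53.9 and 58.3 in WT and 49.5, 56.0 and 26.4 in APP-KI mice in all sorted microglia. Those ranges overlapped, and the log2 difference was -0.83, against -1.05 in C3aR-positive microglia, where they did not.

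Myo6, which moves toward the minus ends of actin and serves endocytosis and autophagy, had log2 differences of 0.56 in all sorted and 0.73 in C3aR-positive microglia. Myo9b, a class IX chain, had differences of 0.56 and 0.82. Myo10, the motor of filopodial tips, had the lowest level per kilobase and differences of 2.39-fold in all sorted and 2.82-fold in C3aR-positive microglia. Both Myo18 chains have little or no motor activity of their own. Myo18a, linked to the Golgi, differed by 0.0145 in all sorted and by -0.46 in C3aR-positive microglia. The first had no fixed direction, as it ran from -0.16 to 0.23 with 1 library left out, below 0 without WT replicate 4, APP-KI replicate 4 or 6 or double mutant replicate 2. Myo18b, best known from striated muscle, had scaled values of 350, 257 and 231 in WT and 261, 121 and 109 in APP-KI mice in all sorted microglia. The ranges overlapped there through APP-KI replicate 4, a library with few genes, and not in C3aR-positive microglia. The log2 differences of Myo18b were -1.16 and -1.52. Its exons share 3.00% of their bases with 1700095B10Rik, and those of Myo9b share 1.57% with Haus8, both on the other strand, and the strand setting of the counting is not given in the sources used here. Myh9, the heavy chain of nonmuscle myosin IIA, differed by -0.12 in all sorted and 0.22 in C3aR-positive microglia.

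Markers of cell types are given for the same libraries as a description too, WT before APP-KI. In C3aR-positive microglia the 10 microglial markers summed to 26003 ± 1253 in WT and 19252 ± 1679 in APP-KI mice (SD, n = 3 each, median log2 difference of the list -0.55), and the 8 border macrophage markers to 1983 ± 146 and 740 ± 225 (median -1.45). The border macrophage sums in all sorted microglia were 2499 ± 610 and 781 ± 111. The oligodendrocyte lineage markers summed to 167 ± 25.8 and 390 ± 102 in C3aR-positive and to 199 ± 35.8 and 353 ± 7.06 in all sorted microglia, and without Cspg4 to 158 ± 27.2 and 202 ± 9.95 and to 195 ± 35.1 and 205 ± 29.8. The endothelial markers summed to 86.9 ± 34.1 and 257 ± 83.7 in C3aR-positive and to 80.1 ± 6.31 and 247 ± 34.7 in all sorted microglia, and without Flt1 to 71.7 ± 28.0 and 40.4 ± 1.54 and to 69.2 ± 5.87 and 53.8 ± 14.7. The astrocyte markers summed to 337 ± 57.8 and 256 ± 30.7 in C3aR-positive and to 300 ± 29.8 and 277 ± 66.9 in all sorted microglia, and without Slc1a3 to 45.0 ± 28.6 and 58.5 ± 37.8 and to 33.6 ± 4.68 and 83.8 ± 85.7. Gfap, of that list, had 0.576 ± 0.544 and 8.75 ± 4.75 in C3aR-positive microglia. In all sorted microglia the neuronal markers summed to 4.67 ± 1.63 and 12.2 ± 15.5, and the T and NK cell markers to 2.56 ± 0.899 and 33.0 ± 39.9. The mural and muscle markers summed to 33.5 ± 10.2 and 56.2 ± 41.3 there. In C3aR-positive microglia these lists summed, in that order, to 5.62 ± 0.675 and 5.47 ± 1.78, 2.40 ± 3.22 and 3.98 ± 1.99, and 39.2 ± 26.4 and 27.7 ± 6.58. All microglial, border macrophage, oligodendrocyte lineage and endothelial markers had reads in the 6 C3aR-positive libraries. The part of these markers in the myosin differences was not tested.

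Of all genes tested, 22.7% were past an adjusted p of 0.05 between APP-KI and WT in C3aR-positive and 4.14% in all sorted microglia, or 27.9% without the libraries with few genes. The 10 genes are not counted against these shares, because their choice used these contrasts. In C3aR-positive microglia 1602 genes were higher and 1195 lower, or 1845 and 605 with median ratio scaling, and the median log2 difference of all genes moved from -0.17 to -0.0282.

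Mice without C3ar1 give a comparison of the APP-KI allele in other libraries than the contrasts above, although the fit of all sorted microglia, with its shared spread and series term, holds both. It sets 5 double mutant against 3 C3aR-KO libraries, and whether those values were also looked at when the genes were chosen is not known. Of the 10 genes 4 passed the test, Myo1e and Myo5a higher and Myo1g and Myo18b lower. Of all genes tested, 3.96% were higher and 2.97% lower past the threshold, or 6.93% together. Without overlap, 4 of the 10 genes, Myo1e and Myo5a among them, lay above C3aR-KO and 2 below. Of all genes, 13.7% did not overlap, in either direction. Myo1e and Myo5a set the choice of the genes by their rise with APP-KI. Counts of the 10 genes in this comparison are therefore a description, and no conclusion is drawn from them beside these shares. The number of genes passing was 860, and 1397 without double mutant replicate 1.

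Myo1e had scaled values of 47.3, 99.0 and 44.2 in C3aR-KO and 607, 499, 619, 549 and 778 in double mutant microglia. All 5 double mutant libraries lay above all C3aR-KO libraries. Because Myo1e helped set the choice of the genes by its rise with APP-KI, its p-values here are a description and no independent test. The log2 difference was 3.30 ± 0.25 (SE, 95% interval 2.78 to 3.83, limma, adjusted p = 7.99e-07), and 3.83 without the libraries with few genes. Over all alternatives the adjusted p ran from 2.14e-31 to 0.000106. Within the 24 and 26 series the difference was 2.99 and 3.83. The 24 series held 2 C3aR-KO and 2 double mutant libraries, and the 26 series 1 and 3.

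Myo5a had scaled values of 84.9, 191 and 115 in C3aR-KO and 773, 275, 364, 373 and 421 in double mutant microglia. The highest value belonged to double mutant replicate 1, a library with few genes, and all 5 lay above C3aR-KO. As for Myo1e, the p-values of Myo5a are a description and no independent test. The log2 difference was 1.74 ± 0.33 (SE, 95% interval 1.04 to 2.44, limma, adjusted p = 0.00431, range over all alternatives 2.59e-06 to 0.0469), and 1.74 without the libraries with few genes. It was 1.85 and 1.73 within the 24 and 26 series.

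Myo18b had scaled values of 521, 543 and 388 in C3aR-KO and 263, 237, 115, 97.3 and 66.4 in double mutant microglia, lower in 5 of 5. The log2 difference was -1.57 ± 0.27 (SE, limma, adjusted p = 0.00195), and -1.93 without the libraries with few genes (adjusted p = 0.00393, range over all alternatives 2.08e-06 to 0.0320). The 24 series gave -1.09 and the 26 series -2.09. Myo1g had scaled values of 93.2, 93.9 and 49.3 in C3aR-KO and 29.3, 49.5, 25.1, 23.9 and 19.0 in double mutant microglia. Double mutant replicate 2 overlapped C3aR-KO replicate 3, and the other 4 lay below. The log2 difference was -1.21 ± 0.19 (SE, 95% interval -1.62 to -0.80, limma, adjusted p = 0.00114), and -1.04 without the libraries with few genes (adjusted p = 0.00499, range over all alternatives 3.97e-06 to 0.147).

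The other 6 genes did not pass, with log2 differences from -0.37 for Myo18a to 0.36 for Myo9b. Without the libraries with few genes 3936 genes passed, 31.3% of those tested, and 6 of the 10 genes were among them. The 2 added were Myo10 at 0.84 (higher in 4 of 4, limma, adjusted p = 0.0308, range over all alternatives 0.0134 to 0.998) and Myo9b at 0.33 (higher in 4 of 4, limma, adjusted p = 0.0186, range 0.0174 to 0.791). Myo1f passed only with DESeq2, at 0.33 (adjusted p = 0.0128, range over all alternatives 0.0128 to 0.846, double mutant higher in 5 of 5), and Myo18a only without APP-KI replicate 5 as well, at -0.29 (limma, adjusted p = 0.0279, range 0.0279 to 0.809, lower in 4 of 4). Myo10 had a difference of -0.23 with all libraries, so its direction turned. Its scaled values were 21.8, 8.71 and 9.33 in C3aR-KO and 2.19, 15.5, 17.9, 15.1 and 18.5 in double mutant microglia. The lowest was that of double mutant replicate 1 and the highest that of C3aR-KO replicate 1, both libraries with few genes.

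Markers of cell types were compared in the same 8 libraries. Of the 10 microglial markers 1 fell, Siglech, by 0.69 on the log2 scale (limma, adjusted p = 0.0120, 5 of 5 libraries below all of C3aR-KO), and the list had a median of -0.44. Of the 9 monocyte and neutrophil markers 1 fell, Ccr2, by 1.43 (limma, adjusted p = 0.0478, 5 of 5 libraries below all of C3aR-KO), with a list median of -0.18. It did not pass without the libraries with few genes, and of this list edgeR called 0 and DESeq2 1. The 10 oligodendrocyte lineage markers summed to 124, 133 and 182 in C3aR-KO and 244, 319, 395, 350 and 404 in double mutant microglia, and to 115, 121 and 177 and 107, 187, 195, 193 and 230 without Cspg4, the most abundant. Of 7 tested, 2 rose, Cspg4 from 8.67 ± 3.74 (SD, n = 3) to 160 ± 28.0 (n = 5) and Mbp, with values of 26.1 to 66.9 in C3aR-KO and 73.2 to 127 in the double mutant, and the median log2 difference of the list was -0.10. The 8 endothelial markers summed to 105, 59.9 and 90.3 in C3aR-KO and 111, 196, 272, 255 and 292 in double mutant microglia. Of 7 tested, only Flt1 rose, from 10.1 ± 4.22 to 182 ± 70.6, and the list had a median of 0.0981. Without Flt1 the endothelial sums were 97.1, 52.9 and 75.4 in C3aR-KO and 32.8, 53.8, 43.2, 44.7 and 42.0 in the double mutant, and Pecam1, which did not pass, had 32.4 ± 7.81 and 8.80 ± 6.37. The 8 border macrophage markers, led by Stab1 (1540 ± 440 and 472 ± 83.1), summed to 1984, 1549 and 2622 in C3aR-KO and 746, 693, 903, 774 and 594 in double mutant microglia. All 8 were tested and 3 fell, Stab1, Mrc1 and F13a1, with a median of -1.08. Without the libraries with few genes 4 of 10 microglial and 4 of 8 border macrophage markers fell, 2 of 8 oligodendrocyte lineage markers rose and 1 fell, 1 of 7 endothelial markers rose and 1 fell, and 1 of 8 astrocyte markers rose and 1 fell. Of 7 astrocyte, 5 mural and muscle, 2 neuronal and 4 T and NK cell markers tested in all 8 libraries 0 passed in limma, with 2, 0, 0 and 0 at an unadjusted p under 0.05, 0 in edgeR and 1, an astrocyte marker, in DESeq2. The medians of the astrocyte, mural and muscle, neuronal and T and NK cell lists were 0.60, 0.72, -0.0628 and -0.59. Gfap, an astrocyte marker that did not pass, had 0.370 ± 0.523 (SD, n = 3) in C3aR-KO and 7.65 ± 6.51 (n = 5) in double mutant microglia. Mbp, Pecam1, Mrc1, F13a1 and Gfap are named in this comparison after their values were seen. Oligodendrocyte lineage, endothelial and border macrophage markers without a read occurred only in the 3 with few genes. The part of these markers in the myosin differences was not tested.

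**Figure D2:**
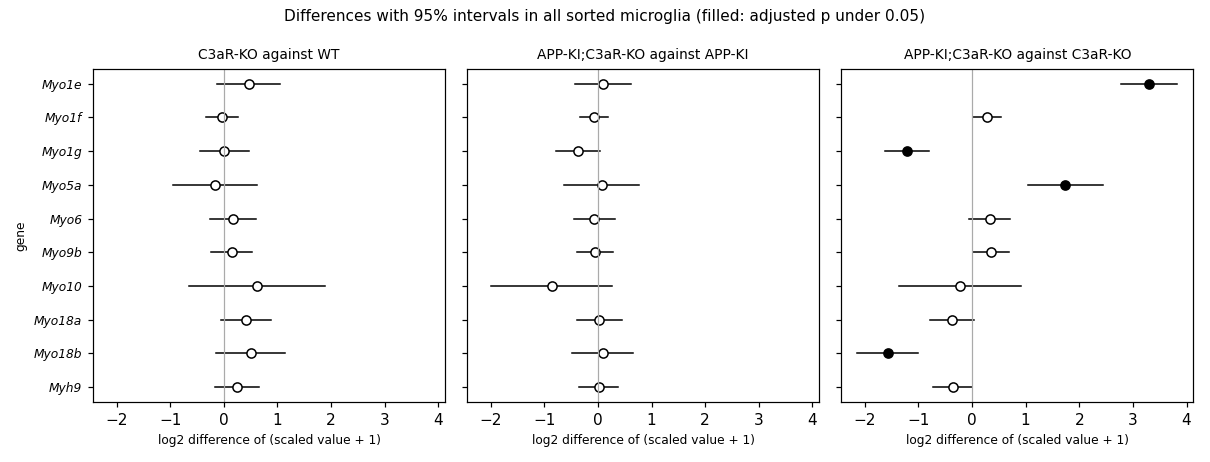
Log2 difference of (scaled value + 1) (horizontal) of each gene (vertical) in C3aR-KO against WT, double mutant against APP-KI and double mutant against C3aR-KO, all sorted, 1 panel each, with 95% intervals as lines and filled points past an adjusted p of 0.05. In the double mutant against C3aR-KO these are Myo1e (3.30), Myo5a (1.74), Myo1g (-1.21) and Myo18b (-1.57).

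Loss of C3ar1 was compared on either genetic background, in C3aR-KO against WT and in double mutant against APP-KI microglia. The second shares its APP-KI libraries with the contrast that chose the genes, and both share libraries with the comparison above. In the limma fit of the 14 libraries none of the 10 genes passed in either, and C3ar1 alone did, 1 of 12410 genes or 0.00806% in each (log2 difference -2.39 and -1.95, limma, adjusted p = 0.00338 and 0.00971, lower in 3 of 3 and 5 of 5). At an unadjusted p under 0.05 there were 344 and 147 genes, with 0 of the 10 in each, and neither edgeR nor DESeq2 called any of the 10. In C3aR-KO mice 4 of the 10, Myo6, Myo9b, Myo18a and Myo18b, lay above WT without overlap and 0 below, against 18.5% of all genes in either direction. In the double mutant all 10 overlapped APP-KI, and 1.61% of all genes did not. Without the libraries with few genes no member passed in limma either, with 1 and 1 of the 10 at an unadjusted p under 0.05, and the direction turned for Myo1e (-0.10), Myo1f (0.0230), Myo1g (-0.0501), Myo10 (-0.00721) and Myh9 (-0.0121) without the APP allele and for Myo5a (-0.0812) and Myo9b (0.0187) with it. Without the APP allele the log2 differences ran from -0.17 for Myo5a (95% interval -0.96 to 0.61) to 0.62 for Myo10 (-0.65 to 1.89). With it they ran from -0.86 for Myo10 (-1.99 to 0.27) to 0.0970 for Myo1e (-0.43 to 0.62). Myo5a had a difference of 0.0707 with the APP allele (-0.63 to 0.77). The difference between the effects of C3ar1 loss on these backgrounds holds the APP-KI and WT libraries whose contrast chose the genes. No conclusion about the 10 genes is therefore drawn from its test. That test passed for 0 of 12410 genes in limma (0%), with 203 at an unadjusted p under 0.05, 0 in edgeR and 1 in DESeq2. Of the 10 genes 0 passed in limma, edgeR or DESeq2, and 0 had an unadjusted p under 0.05.

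The difference between the APP-KI effects in C3aR-positive and in all sorted microglia was also fitted. Its libraries are those whose contrasts chose the genes. The values of the 10 genes, none of which passed, are therefore a description, and no conclusion is drawn from their test. No gene of 12592 passed (0%) in limma, with 1480 at an unadjusted p under 0.05, 0 in edgeR and 120 in DESeq2. This fit held the 12 WT and APP-KI libraries and had no term for the library number series, so its estimates are not the differences between the effects given above. For Myo1e the effects differed by -0.35 on the log2 scale (95% interval -0.94 to 0.24) and for Myo5a by 0.45 (-0.18 to 1.09). For Myo18b they differed by -0.66 (-1.51 to 0.19), and 1 of the 10, Myo18a, had an unadjusted p under 0.05, at -0.62. In WT mice the scaled values in C3aR-positive and all sorted microglia were 68.8 ± 5.17 and 44.5 ± 11.7 (SD, n = 3 each) for Myo1e and 129 ± 0.853 and 142 ± 36.3 for Myo5a.

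Other genes of the actomyosin system were read from lists chosen by function, with earlier results of these data known. The p-values of genes named from them are therefore a description and no independent test. Of all genes tested, 6.93% passed between C3aR-KO and double mutant microglia, and 31.3% without the libraries with few genes. Of 28 other myosin heavy chain genes, 12 were tested, 1 rose and 1 fell (median 0.13) between C3aR-KO and double mutant microglia, where the median log2 difference of all genes was -0.0343. Without the libraries with few genes 1 rose and 2 fell of 15. Myh10, the heavy chain of nonmuscle myosin IIB, rose by 0.87 on the log2 scale (limma, adjusted p = 0.0246, 5 of 5 libraries above all of C3aR-KO). Myo9a, the most abundant of the list and the relative of Myo9b, had a difference of -0.33 that did not pass. Between WT and APP-KI in C3aR-positive microglia, given without a test, Myh10 differed by 1.06.

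Of 16 myosin light chain and calmodulin genes, which bind the lever arm of the heavy chains, 11 were tested, 0 rose and 0 fell (median -0.0755) in the double mutant against C3aR-KO. Of those 11, 4 had an unadjusted p under 0.05, edgeR called 0 and DESeq2 1. Without the libraries with few genes 3 of 9 passed, all higher. Calm2, the most abundant, had a difference of -0.70. Of 26 genes that control myosin II, 21 were tested, 0 rose and 0 fell (median -0.0868) in the double mutant against C3aR-KO. Of those 21, 5 had an unadjusted p under 0.05, edgeR called 0 and DESeq2 0, and without the libraries with few genes 2 rose and 6 fell of 21. Rhob, the most abundant and a GTPase, had a difference of -0.12.

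Of 24 cargo adaptors of Myo5a and Myo6, 20 were tested, 1 rose and 1 fell (median -0.0855) in the double mutant against C3aR-KO, and without the libraries with few genes 4 rose and 1 fell of 20. Optn, which ties Myo6 to autophagy, rose by 1.86 on the log2 scale (limma, adjusted p = 0.000490, 5 of 5 libraries above all of C3aR-KO). Mlph, which links Myo5a to Rab27a, fell by 1.13 (limma, adjusted p = 0.00212, 5 of 5 libraries below all of C3aR-KO). Between WT and APP-KI in C3aR-positive microglia Optn differed by 2.02 and Mlph by -0.85.

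Of 36 genes of actin and its nucleators, 34 were tested, 2 rose and 4 fell (median -0.0768) in the double mutant against C3aR-KO, and without the libraries with few genes 7 rose and 8 fell of 35. Daam1, a formin that elongates filaments, rose by 0.87 (limma, adjusted p = 0.00866, 5 of 5 libraries above all of C3aR-KO), and Fmnl1, a formin of blood cells, fell by 0.61 (adjusted p = 0.00968, 5 of 5 libraries below all of C3aR-KO). Of 39 other actin-binding genes, 37 were tested, 3 rose and 1 fell (median -0.0628) in the double mutant against C3aR-KO, and without those libraries 10 rose and 3 fell of 38. Capg, which caps filament ends, rose by 2.79 (limma, adjusted p = 8.35e-06, 5 of 5 libraries above all of C3aR-KO), and Actn1, a crosslinker of filaments, fell by 2.01 (adjusted p = 0.000348, 5 of 5 libraries below all of C3aR-KO). The most abundant genes of these lists, Actb and Tln1, had differences of -0.10 and -0.0732 between C3aR-KO and double mutant microglia that did not pass.

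Over the 20 libraries, the genes whose log2 values ran most like those of Myo1e, by Pearson r, were Cspg4 (0.991), Fabp5 (0.990), Asb10 (0.988), Acaca (0.987) and Rab7b (0.986), among 10133 genes whose scaled value averaged 5 or more. For Myo5a they were Bambi (0.972), Insig1 (0.965), Rps24 (0.964), Eef1g (0.961) and Dgkz (0.953). The libraries fall into those with and without the APP allele, which sets much of the range of both genes.

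The promoters of Myo1e and Myo5a, which were higher together in APP-KI mice, and of Myo1g are shown from RefSeq (GRCm38.p6) up to the base before the annotated gene. Myo1g was lower on average in APP-KI mice, with ranges that overlapped in all sorted microglia. RefSeq windows were matched for 9 of the 10 genes, 11 windows in all. On both strands 2 motifs were searched, ACGTG, 1 form of the core of the hypoxia response element, and AGGAAG, which holds the core bound by ETS factors. The other form of the hypoxia response core, GCGTG, was not searched. ACGTG is in 19.6% and AGGAAG in 35.4% of 32851 promoter windows of the same length. Of the 11 windows 3 hold ACGTG (Myo6, Myo9b and 1 of Myo10) and 6 hold AGGAAG (Myo1f, Myo1g, Myh9, 1 of Myo18a and both of Myo10). Neither ACGTG nor AGGAAG is in the windows of Myo1e and Myo5a. The Myo1e stretch printed below holds cacgc, which is GCGTG on the other strand. The window of Myo1g has 6 matches to AGGAAG, of which 3 overlap in 1 repeat. The stretches printed are chr9:70207100-70207349 (plus strand), chr9:75070956-75071014 (plus strand) and chr11:6520966-6521208 (minus strand), with AGGAAG on either strand in capitals, 5 matches in Myo1g.
Myo1e: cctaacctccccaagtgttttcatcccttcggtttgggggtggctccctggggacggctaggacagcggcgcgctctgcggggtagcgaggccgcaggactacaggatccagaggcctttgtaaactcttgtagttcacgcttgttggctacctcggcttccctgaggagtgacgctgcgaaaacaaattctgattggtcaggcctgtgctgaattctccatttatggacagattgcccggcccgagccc
Myo5a: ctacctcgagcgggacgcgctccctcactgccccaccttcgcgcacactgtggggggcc
Myo1g: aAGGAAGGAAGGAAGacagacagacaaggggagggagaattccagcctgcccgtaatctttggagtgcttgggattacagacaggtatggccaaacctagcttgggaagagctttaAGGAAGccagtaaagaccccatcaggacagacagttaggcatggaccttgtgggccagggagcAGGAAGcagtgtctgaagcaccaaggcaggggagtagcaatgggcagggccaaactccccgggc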

How the data were processed

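Per the submitters' processing notes and the study's methods, the authors trimmed reads with cutadapt, aligned them to mm10 with TopHat2 and counted them with featureCounts. Use of the kit's molecular identifiers is not given in the sources used here. The deposited values are a signal, named FPKM by the authors, that equals a gene's reads over the library's 75th percentile of 21326 entries. All values, 100%, gave whole reads within 0.01 read. After log2(scaled value + 1), limma 3.58.1 (R 4.3.3) with a trend tested all genes past the filter, with Benjamini-Hochberg adjustment. A first fit held the 14 all-sorted libraries with the number series as a term, another the 6 C3aR-positive libraries, and a last the 12 WT and APP-KI libraries. The design had assumed FPKM, and the log-scale test was kept. On recovered reads edgeR 4.0.16 called 2429 genes for APP-KI against WT in C3aR-positive and 409 in all sorted microglia and 655 for double mutant against C3aR-KO, and DESeq2 1.42.0 was also run. Other alternatives were scalings, filters, pseudocounts, left-out libraries and a replicate block. The tests of APP-KI against WT in C3aR-positive microglia and of double mutant against C3aR-KO were tried on simulated data. There, with 1 spread for all genes, 55.1% and 36.4% of true log2 differences of 1 were recovered, and 100% and 99.0% of those of 2. Comparisons of C3ar1 loss were not simulated. Exon lengths came from GENCODE M21, which holds 98.4% of the symbols. Each pair of replicates differed by more than counting noise (chi-square over degrees of freedom 21.7 or more). The members and lists were chosen with earlier results of these data known. Genes named, beside the members, are from each list the most abundant and those with the largest rise and fall past the threshold, not all printed, and the 5 most like Myo1e and Myo5a. A result of that kind is not reported here.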

Additional observations from a re-analysis of the deposited data

Results flagged for a closer look

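In the double mutant, the only condition with more than 3 libraries, 1 library stood far from the other 4 for 5 of the 10 genes, always replicate 1, which has few genes. Its gap to the nearest library, as a share of the whole range, was 0.794 for Myo1f, 0.831 for Myo6, 0.874 for Myo9b and 0.811 for Myo18a, where it was highest, and 0.791 for Myo10, where it was lowest. The limit for 5 samples is 0.71, which chance passes in about 1 of 20 groups, and the 5 genes share the same library. Over all 12410 genes tested 36.4% passed it, 34.3% with replicate 1 as the library set apart. What sets that library apart was not tested.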

How the results depend on the processing

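Of the members' differences under the alternatives, 1548 kept direction and side of the threshold or moved by less than their spread, 14 untested ones moved by more, 62 tested ones turned direction, 3 of them newly passing, 5 newly passed in the same direction and 1 no longer passed. For double mutant against C3aR-KO, Myo1e, Myo5a and Myo18b passed under all 26 settings and Myo1g under 25. The counts of genes passing, with 1 library left out, ran from 1777 to 2528 for APP-KI against WT in C3aR-positive (lowest without WT replicate 3, 1833 without replicate 2) and from 218 to 837 in all sorted microglia, where the lowest was without WT replicate 4 and the highest without double mutant replicate 1, with 281 and 317 without WT replicates 5 and 6 and 272 without APP-KI replicate 6. They ran from 0 to 21 for C3aR-KO against WT (lowest without WT replicate 4, highest without C3aR-KO replicate 3), 0 to 1 for double mutant against APP-KI (0 without APP-KI replicate 5 or 6), 614 to 1397 for double mutant against C3aR-KO (highest without double mutant replicate 1) and 0 to 2 for the difference between sorts (highest without APP-KI replicate 6). Without the libraries with few genes 3510 genes passed for APP-KI against WT in all sorted microglia, 2 for C3aR-KO against WT and 3936 for double mutant against C3aR-KO, and without those with few or many genes 1904 for the first and 4158 for the last. With DESeq2 9 passed for C3aR-KO against WT, 1 for the difference of the C3ar1-loss effects and 120 for the difference between sorts. In the comparisons of C3ar1 loss, limma without trend called 0 and 0 genes and fits of only the compared groups 0 and 0, no filter gave 2 in double mutant against APP-KI, and double mutant against C3aR-KO alone gave 443. The causes were not tested. Reads were fewest for Myo10, 95 to 1480 per library, and the part of counting error in its spread was not tested.

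For C3aR-KO against WT, with 1 library left out Myo1g ran from -0.14 to 0.0811 and Myo5a ran from -0.52 to 0.0797, without the libraries with few genes Myo1e was -0.10, Myo1f was 0.0230, Myo1g was -0.0501, Myo10 was -0.00721 and Myh9 was -0.0121, without those with few or many genes Myo1e was -0.13, Myo1f was 0.0332, Myo1g was -0.0717, Myo10 was -0.0672 and Myh9 was -6.67e-05. There, with median ratio scaling Myo1g was -0.00377, with edgeR Myo1g was -0.0321, with DESeq2 Myo1g was -0.0196. For double mutant against APP-KI, with 1 library left out Myo1f ran from -0.14 to 0.0102, Myo5a ran from -0.26 to 0.28, Myo6 ran from -0.19 to 0.0297, Myo9b ran from -0.20 to 0.12, Myo18a ran from -0.19 to 0.21, Myo18b ran from -0.21 to 0.32 and Myh9 ran from -0.0327 to 0.0950, without the libraries with few genes Myo5a was -0.0812 and Myo9b was 0.0187, without those with few or many genes Myo6 was 0.00471, Myo18a was -0.0854, Myo18b was -0.17 and Myh9 was -0.0438. There, without the series term Myo18b was -0.15, with only the compared groups Myh9 was -0.0215. For double mutant against C3aR-KO, with 1 library left out Myo10 ran from -0.78 to 0.36, without the libraries with few genes Myo10 was 0.84, without those with few or many genes Myo10 was 0.88. For the difference of the C3ar1-loss effects, with 1 library left out Myo1f ran from -0.10 to 0.0361 and Myo5a ran from -0.17 to 0.64, without the libraries with few genes Myo1e was 0.17 and Myh9 was 0.0284, without those with few or many genes Myo1e was 0.30. For the difference between sorts, with 1 library left out Myo6 ran from -0.0556 to 0.22, without those with few or many genes Myo1g was 0.17. For Myo18a, APP-KI;C3aR-KO against APP-KI gave -0.0887 without the series term. These are tested log2 differences that turned direction, and of them only those of Myo10 in double mutant against C3aR-KO without the libraries with few, or few and many, genes passed the test, besides that of Myo18b under the replicate block. The fits without libraries with few or many genes were chosen after seeing the data. The causes were not tested.

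Replicate numbers are shared between groups, but same-numbered libraries did not deviate together in every pair (r across genes 0.0215, 0.0371 and -0.0123 for APP-KI against WT in C3aR-positive and 0.252, 0.0877 and 0.113 in all sorted microglia, -0.305 and 0.0259 for double mutant against APP-KI and 0.000403, 0.0699 and 0.222 against C3aR-KO). With a replicate block 459 genes passed for double mutant against APP-KI and 151 for double mutant against C3aR-KO, from fewer libraries. In the first Myo5a was -0.00888, Myo18a -0.40 and Myo18b -1.13 (limma, adjusted p = 0.00625, range over all alternatives 0.00625 to 1.00), and Myo1g was -1.27 (adjusted p = 0.00773, range 0.00773 to 1.00), and in the second Myo1g had an adjusted p of 0.147.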
